A study of Mus musculus with 12 samples.

Results

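Peripheral neural stem cells (pNSCs) are cultures with the look and markers of brain neural stem cells that were derived from organs other than the brain and spinal cord. The cultures described here came from mouse embryonic limb and were profiled as 2 arrays titled elpNSCs-late and 2 titled elpNSCs-early, 4 of the 12 arrays of the series. Genes entered the comparison if a probe was detected on 2 or more of the 12 arrays, which kept 10144 of the 16593 genes with a symbol on the array. All samples carried the strain label Mixture C57BL/6, CD1 and C3H, and no treatment was listed for either limb group. The other arrays, also 2 a group, held alpNSCs-late and alpNSCs-early from adult lung, Control-NSC and Fibroblasts. The study's methods describe a pair of routes, 1 with serum expansion and a brief low-pH step, and 1 in which fresh limb cells went straight into neural stem cell medium. Clusters were then picked by hand, usually as clones, and kept with EGF and bFGF. The labels do not say which route these arrays followed. In the paper, the microarray comparison of limb and lung lines beside control NSCs and fibroblasts is of its low-pH lines. It calls those ellNSCs and allNSCs, names that differ from these titles. The labels give no passage number for late or early, and do not say whether the late and early arrays followed the same clone or came from separate cultures, so time in culture and a difference between clones cannot be told apart. The p-values then measure the spread between replicate arrays, pooled over all 6 groups and not taken from the limb arrays alone. That spread may be technical.

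Cultured neural stem cells divide under EGF and bFGF and hold back differentiation partly through Notch signalling, which switches on the Hes repressors. Growth factors, serum and handling also switch on the immediate-early genes, such as Fos and Junb, within minutes and without new protein synthesis. Cells that stop dividing or meet DNA damage raise p53 targets such as Cdkn1a, which holds the cell cycle back.

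Values are normalized intensities on the log2 scale, and a difference is the late mean minus the early mean, given with its standard error (s.e.). The 4 arrays detected 11930 and 12536 probes in elpNSCs-late, against 12413 and 12361 in elpNSCs-early. The late pair correlated at r = 0.993, the early pair at 0.990, and late with early arrays at 0.972 to 0.977. The median s.d. of a gene between replicates was 0.117 in elpNSCs-late, against 0.138 in elpNSCs-early and 0.080 to 0.102 in the other groups. All 6 neural stem cell markers chosen for the check (Nes, Sox2, Olig2, Fabp7, Slc1a3 and Vim) were detected on all 4 limb arrays. Of 7 fibroblast markers, none was detected on a late array and 1, Thy1, was detected on both early arrays. Summed on the linear intensity scale, the fibroblast markers reached 138 and 139 in elpNSCs-late, against 250.3 and 249 in elpNSCs-early, while Fibroblasts averaged 19770. The other 6 markers were detected on no limb array, so the gap between late and early sums lies in Thy1. Control-NSC arrays detected Thy1 too.

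Late limb cultures differed from early ones at 2413 genes, 23.8% of those tested, at an adjusted p under 0.05. Of these, 1187 (11.7%) were higher in elpNSCs-late and 1226 (12.1%) were lower. The late and early arrays did not overlap at any called gene, while they did not overlap at 53.6% of all genes tested (26.3% higher and 27.4% lower in elpNSCs-late). The median difference over all genes was 0 on the log2 scale. Through the late limb arrays alone, 12 genes passed the detection filter, and 10 of them were called higher. Another 18 passed through the early limb arrays alone, and 9 of them were called lower. Such genes were admitted by the group in which they are high, so their calls support nothing further. At least 2-fold changes were made by 192 of the called genes upwards and 261 downwards, and at least 4-fold changes by 7 upwards and 37 downwards. RNA was taken from whole cultures, so a change in the share of cells that express a gene and a change in RNA per cell cannot be told apart. Scaling the arrays by their medians in place of quantile normalization moved the median of all genes to 0.15 and the calls to 2262 higher and 623 lower, so that 78.4% of calls were higher, against 49.2% with quantile normalization.

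More genes were called in the limb line than in the lung line. In alpNSCs-late against alpNSCs-early, 490 genes (4.83%) were called, 214 (2.11%) higher and 276 (2.72%) lower. The limb and lung comparisons share no arrays. Both lines rose at 134 genes and both fell at 164, which was 12.3% of the limb calls and 60.8% of the lung calls. The limb change itself differed from the lung change at 574 genes (5.66%), above it at 251 (2.47%) and below it at 323 (3.18%), and 500 of them were among the limb calls. At 27 genes the lines were called in opposite directions, among them Casp1, Wnt7b and Ugt8a.

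**Figure D1:**
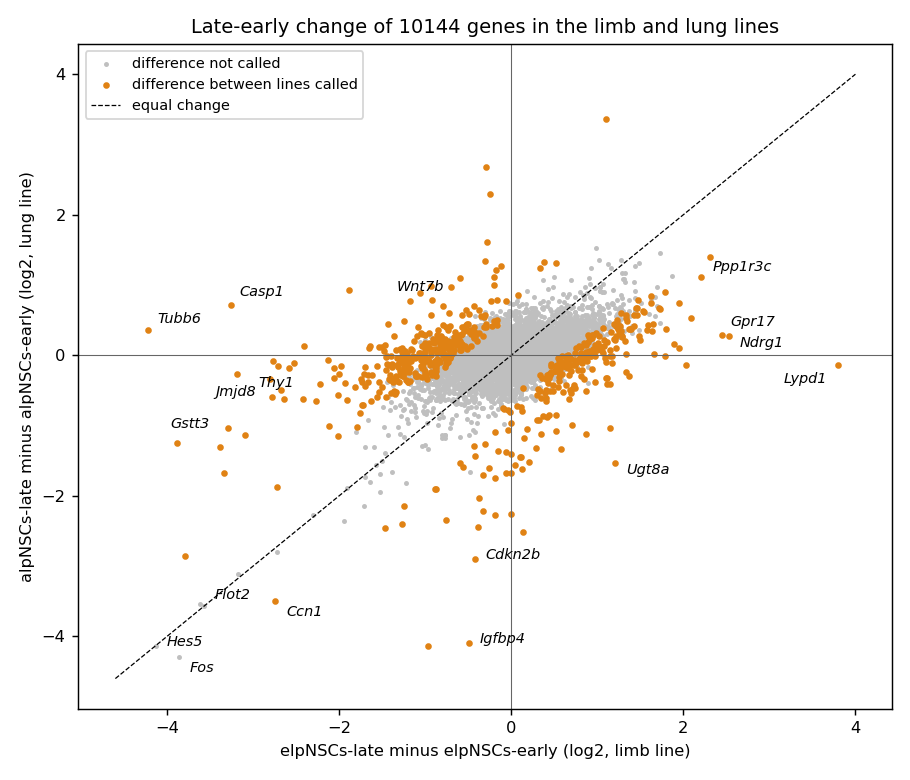
Late minus early difference of each of 10144 genes on the log2 scale in the limb line (x axis) and the lung line (y axis), with the 574 genes whose change differed between the lines in orange and equal change as a dashed line. Fos, Hes5 and Flot2 lie near the dashed line at the lower left, while Lypd1 and Tubb6, at lung differences of -0.13 and 0.36 that were not called, lie far to the right and left.

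Several of the largest falls took genes to background in the late cultures. Tubb6, a beta-tubulin, was at 4.22 and 4.31 in elpNSCs-late, against 8.60 and 8.36 in elpNSCs-early. It was detected on neither late array and on both early arrays, which makes it at least 13.6-fold lower (adjusted p = 1.55e-09). Such bounds set the bright group's mean against, on each dim array, the higher of the probe's own value and the lowest value of any detected probe. The other 8 arrays all detected Tubb6, at 11.03 in Control-NSC and 11.51 in Fibroblasts on average, and its lung difference was 0.36 (adjusted p = 0.141).

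Gstt3, a theta-class glutathione transferase, had 4.19 and 4.25 in elpNSCs-late, against 8.12 and 8.09 in elpNSCs-early, and was at least 10.4-fold lower. Jmjd8, a jumonji-domain protein, had 4.29 and 4.32 in elpNSCs-late, against 7.76 and 7.22 in elpNSCs-early, at least 6.82-fold lower. Both genes were below detection on the late arrays alone, since the 10 other arrays detected them. In all, 141 genes were called lower with neither late array above background, and 32 of these were detected on all 10 other arrays. Of the 32, 9 had a further probe above the filter, and that probe was called lower for 1 of them and not called for 8, so most of these 9 falls rest on 1 probe.

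Flot2, a scaffold protein of membrane rafts, had 5.43 and 5.51 in elpNSCs-late, against 9.13 and 8.95 in elpNSCs-early (difference -3.57 ± 0.12 s.e., adjusted p = 3.78e-09). The fall was called with its other probe too, at -3.09. Its lung difference was -3.56, so that the lines differed by -0.01 (adjusted p = 0.992). Casp1, the protease of the inflammasome, had 4.58 and 4.74 in elpNSCs-late, where 1 array detected it, against 7.95 and 7.90 in elpNSCs-early. It moved the other way in the lung line, where early arrays did not detect it (at least 1.28-fold higher in late), and the fitted difference between the lines was -3.97 (adjusted p = 1.71e-07).

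Thy1, a surface glycoprotein of neurons and fibroblasts, had 4.21 and 4.25 in elpNSCs-late, against 7.05 and 6.95 in elpNSCs-early. It was at least 4.86-fold lower. All 4 lung arrays were at a similarly low level (4.22 to 4.41), while Control-NSC averaged 9.12 and Fibroblasts 10.48. Col18a1, the basement membrane collagen that yields endostatin, differed by -3.39, although its second probe was not called (-0.12). The synaptic vesicle-related transporter Svop differed by -3.29, Churc1, a zinc-binding transcription regulator, by -3.09, and Nudt7, a peroxisomal coenzyme A hydrolase, by -2.80. Ky, a muscle peptidase, was at least 8.71-fold lower and Itm2a, a membrane protein of differentiating cartilage and muscle, at least 5.12-fold lower.

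The largest rise was that of Lypd1, a membrane-anchored protein that damps nicotinic acetylcholine receptors. It had 10.44 and 10.52 in elpNSCs-late, against 6.57 and 6.78 in elpNSCs-early (3.80 ± 0.12 s.e., adjusted p = 3.78e-09). Both late arrays were above every other group, of which Control-NSC averaged 7.67 and Fibroblasts 7.20. The lung difference was -0.13, and the lines differed by 3.93.

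Several rises were of regulators of neural and mesodermal identity that were not above background on the early arrays. Pou4f1, a POU-domain factor of sensory neurons, had 6.04 and 6.29 in elpNSCs-late, against 4.28 and 4.16 in elpNSCs-early, at least 2.78-fold higher. Isl1, a LIM-domain factor of motor and sensory neurons, had 6.10 and 6.07 in elpNSCs-late, against 4.35 and 4.25 in elpNSCs-early, at least 2.63-fold higher. Meox2, a homeobox factor of somites and limb muscle, had 5.94 and 6.42 in elpNSCs-late, against 4.44 and 4.61 in elpNSCs-early, at least 2.80-fold higher. None of these 3 was detected on either early array, and each change differed from that of the lung line.

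Otx1, a forebrain homeobox factor, rose by 1.95 ± 0.13, Osr2, a zinc-finger factor of limb and palate, by 1.80 ± 0.13 and Bex2, an X-linked gene of neural cells, by 1.78 ± 0.14. Ppp1r3c, which directs phosphatase to glycogen, rose by 2.21 ± 0.15 and also in the lung line, by 1.12. The replication-dependent histone H3c7 rose by 2.31 in the limb line and 1.40 in the lung line. Pdlim1, an actin-associated adaptor, rose by 2.03 and Cytip, a regulator of cell adhesion in immune cells, by 1.89, with lung differences of -0.13 and 0.16 that were not called.

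**Figure D2:**
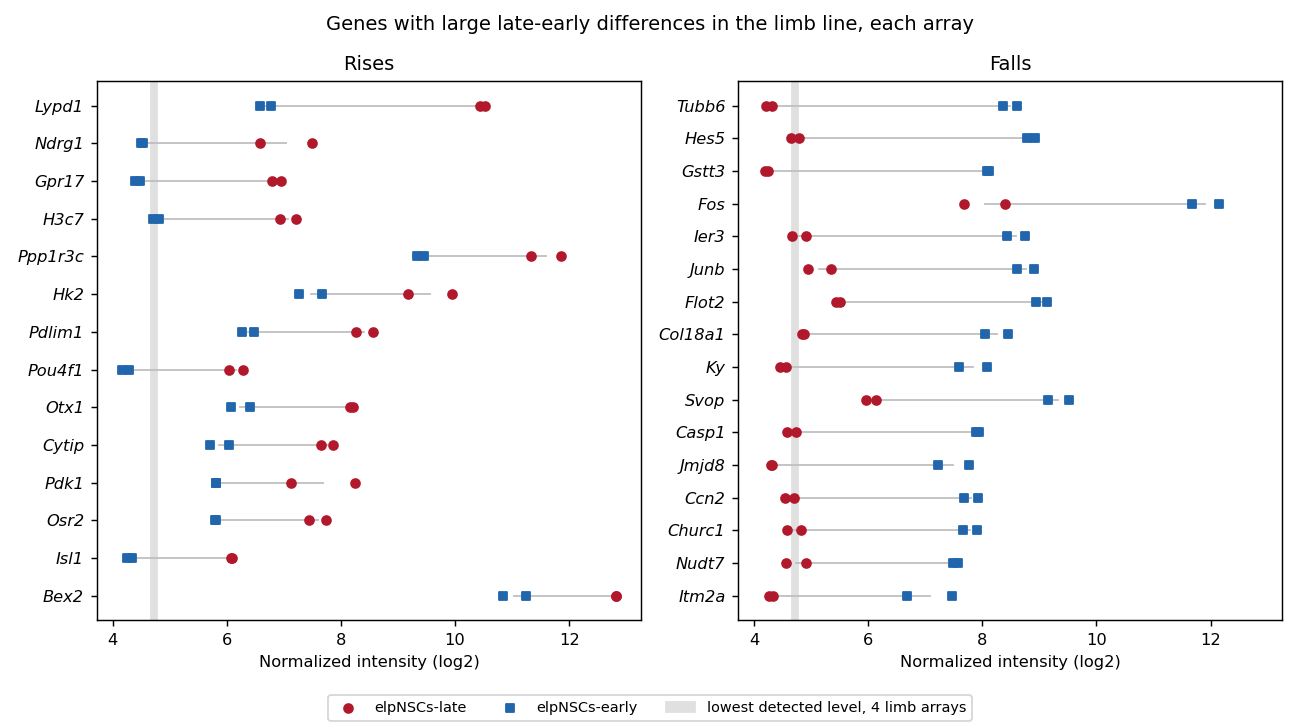
Normalized intensity on the log2 scale (x axis) of genes with large called differences, 14 rises at left and 16 falls at right, each array as a point (elpNSCs-late red circles, elpNSCs-early blue squares), with a line between group means and a grey band over the lowest detected level of the 4 limb arrays. Late and early arrays are apart for every gene, and Tubb6, Gstt3, Ky, Jmjd8 and Itm2a lie left of the band on both late arrays.

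The immediate-early genes fell as a group. Of 28 members tested, 16 were lower in elpNSCs-late and 1 was higher, with a median difference of -0.60, against 12.1% lower, 11.7% higher and a median of 0 over all genes. Among the 28, 1 member passed the detection filter through a single limb group. In the lung line 15 were lower and none higher, against 2.72% and 2.11% of all genes. The change differed between the lines at 3 members, where 5.66% of all genes did. Fos, a subunit of the AP-1 transcription factor, had 7.69 and 8.41 in elpNSCs-late, against 12.15 and 11.67 in elpNSCs-early (-3.86 ± 0.22 s.e., adjusted p = 2.8e-07). Early arrays lay more than 3 log2 units above late ones.

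Junb, a partner of Fos in AP-1, had 5.35 and 4.94 in elpNSCs-late, against 8.61 and 8.91 in elpNSCs-early, and Fosb was at least 5.76-fold lower. Ier3, a stress-induced survival gene, had 4.67 and 4.92 in elpNSCs-late, against 8.74 and 8.43 in elpNSCs-early. It fell by 3.79 in the limb line, against a fall of 2.85 in the lung line, and the 2 falls differed (-0.94, adjusted p = 0.0198). With no background correction that difference turned to 0.23 and was not called. Zfp36, whose protein destabilizes inflammatory mRNAs, had 5.53 and 5.55 in elpNSCs-late, against 8.26 and 8.26 in elpNSCs-early.

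Dusp1, a phosphatase of MAP kinases, had 8.63 and 8.86 in elpNSCs-late, against 10.44 and 10.48 in elpNSCs-early, a difference of -1.71. Ccn1 and Ccn2, matricellular proteins that are also targets of YAP and TEAD, had differences of -2.74 and -3.18, and Ccn2 was below detection on both late arrays (at least 8.48-fold lower). Smaller falls were called for Egr1 (-1.02), Jun (-0.67), Srf (-0.76) and Atf3 (at least 1.15-fold lower). Klf2, a zinc-finger factor named because it was the single rise, differed by 0.53, a call that several other settings lost. Klf4 fell by 1.50 with 1 probe, while its 2 other probes were not called. Fos had 6.76 in Control-NSC and 10.69 in Fibroblasts on average, so the late limb arrays lay between those groups and the early ones above both.

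**Figure D3:**
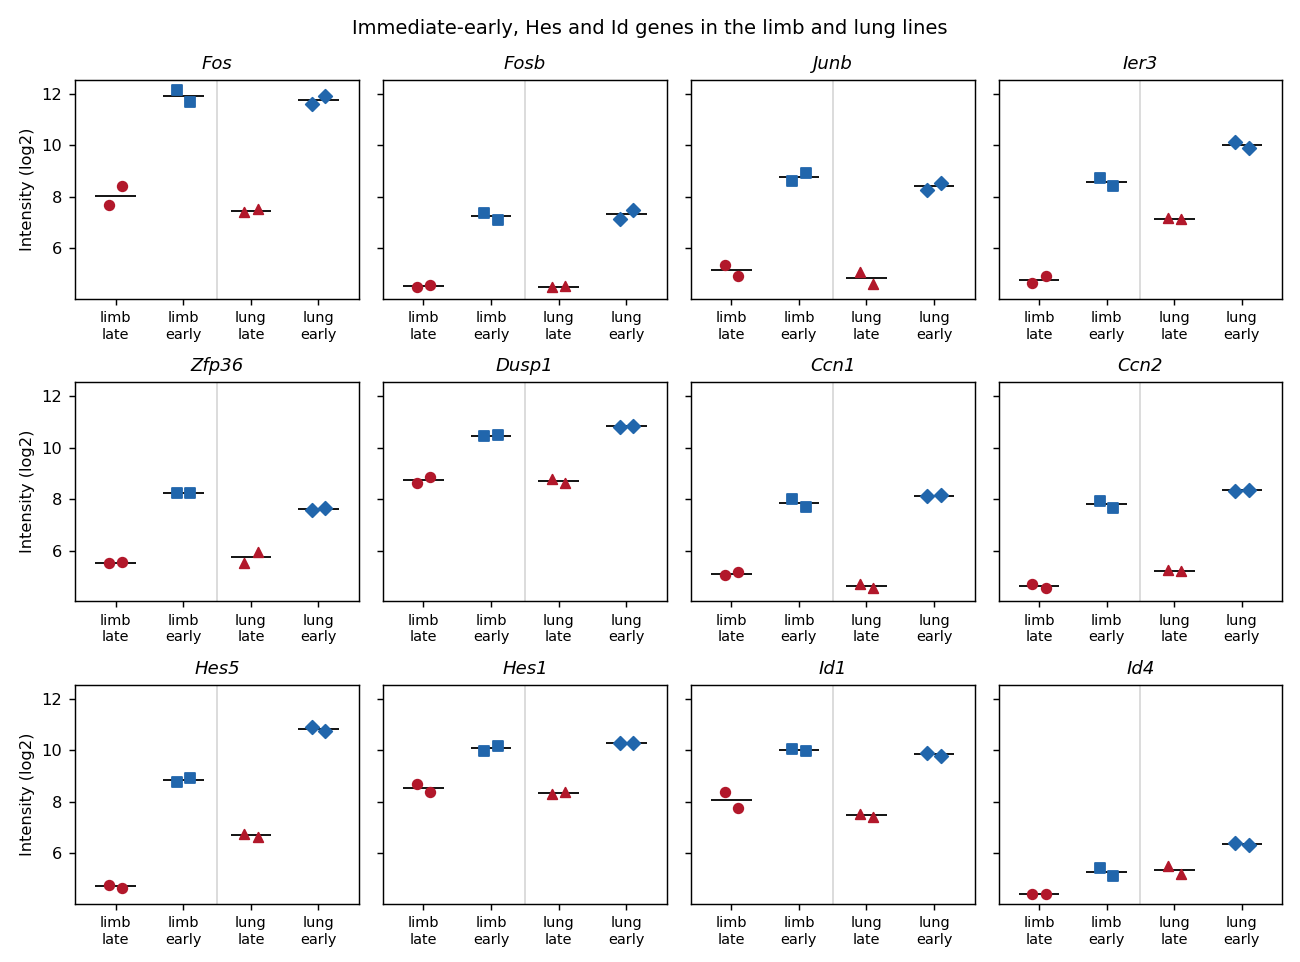
Normalized intensity on the log2 scale (y axis) of 12 genes in the limb and lung lines, late left of early, with 1 point per array and a bar at the mean of 2. Fos, Junb, Ccn2 and Hes5 are lower in late than early cultures of both lines, and Ier3 falls further in the limb line (-3.79, against -2.85 in the lung line).

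The 250 bases before the start site are printed for 3 immediate-early genes and for Hes5, from the RefSeq promoter table for GRCm38.p6, since these genes fell in both lines and each holds one of the motifs searched. Capitals mark a match, on either strand, to the TATA box (TATAAA), the CRE (TGACGTCA) or the CArG box that serum response factor binds. The E-box CACGTG, which lies in Dusp1 apart from the CRE, is not capitalized. No capitalized match overlaps another.
Fos, chr12:85473640-85473889, plus strand, TATA box starting 33 bases before the start: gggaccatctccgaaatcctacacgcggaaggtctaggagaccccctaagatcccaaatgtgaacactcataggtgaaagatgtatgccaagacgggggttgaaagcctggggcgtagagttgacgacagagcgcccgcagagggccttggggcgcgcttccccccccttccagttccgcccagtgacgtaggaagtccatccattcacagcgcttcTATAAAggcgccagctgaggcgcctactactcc
Zfp36, chr7:28379229-28379478, minus strand, CArG box starting 58 bases before the start: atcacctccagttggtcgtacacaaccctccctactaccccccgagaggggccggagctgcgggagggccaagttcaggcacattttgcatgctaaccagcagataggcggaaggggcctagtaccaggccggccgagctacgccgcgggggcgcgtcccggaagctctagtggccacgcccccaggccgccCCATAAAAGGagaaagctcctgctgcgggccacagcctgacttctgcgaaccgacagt
Dusp1, chr17:26508473-26508722, minus strand, CRE starting 143 bases before the start: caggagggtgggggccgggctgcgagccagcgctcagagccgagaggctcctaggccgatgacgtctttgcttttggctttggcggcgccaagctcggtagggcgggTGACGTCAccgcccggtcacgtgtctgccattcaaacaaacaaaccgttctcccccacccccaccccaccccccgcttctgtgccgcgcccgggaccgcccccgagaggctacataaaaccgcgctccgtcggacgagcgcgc
Hes5, chr4:154960673-154960922, plus strand, CArG box starting 33 bases before the start: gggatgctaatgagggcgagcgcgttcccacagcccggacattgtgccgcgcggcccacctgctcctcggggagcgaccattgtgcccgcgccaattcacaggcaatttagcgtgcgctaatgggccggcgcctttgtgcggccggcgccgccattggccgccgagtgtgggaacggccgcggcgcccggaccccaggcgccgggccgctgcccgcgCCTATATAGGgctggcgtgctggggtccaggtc

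Of the 16 immediate-early members called lower, 14 had a promoter entry. The CArG box was found in 3 of the 14 (21.4%: Zfp36, Srf and Egr2), the CRE in 1 (7.14%: Dusp1), the E-box in 4 (28.6%) and the TATA box in 3 (21.4%: Ccn1, Fos and Srf). Over all 32851 promoter entries the shares were 1.47% for the CArG box, 1.55% for the CRE, 6.02% for the E-box and 12.4% for the TATA box. Over the 8223 tested genes with an entry they were 1.42%, 2.85%, 9.95% and 8.70%, and over the 991 of these called lower 1.61%, 1.92%, 9.69% and 8.98%. A match is a run of letters in the reference and not a measured binding site.

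The Notch targets Hes5 and Hes1 fell in both lines. Hes5, a repressor of neuronal differentiation, had 4.79 and 4.64 in elpNSCs-late, where 1 array detected it, against 8.78 and 8.91 in elpNSCs-early (-4.13 ± 0.12 s.e., adjusted p = 1.55e-09). A second probe fell by 3.70. The lung difference was -4.14, and the difference between lines was 0.01, though with the deposited normalized values it was -1.08 (adjusted p = 0.0374). Hes1 had 8.69 and 8.39 in elpNSCs-late, against 9.98 and 10.16 in elpNSCs-early. Its late level was near that of Control-NSC, which averaged 8.06.

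The Notch list, with a median of 0.02, had 3 of 16 members higher and 3 lower. Each share was 18.8%, against 11.7% higher and 12.1% lower over all genes. The third to fall was the receptor Notch1 (-0.62). The rises were those of Dll3, a ligand that inhibits Notch in the same cell (1.14), Mfng, a glycosyltransferase that tunes the receptor (at least 1.78-fold), and Hes6, which counters Hes1 (0.56), and each differed from the lung line. The calls on Hes6 and Mfng were not shared by their other probes. Among BMP targets, Id1, an inhibitor of differentiation factors, had 8.39 and 7.75 in elpNSCs-late, against 10.04 and 9.98 in elpNSCs-early, and Id4 was below detection in elpNSCs-late. Id2 (-0.51) and Id3 (-0.18) were not called. In the BMP list 2 of 18 members were higher (11.1%, against 11.7% of all genes) and 3 lower (16.7%, against 12.1%).

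Genes of cell division rose almost as a block. Of 24 mitosis genes, 23 were higher in elpNSCs-late and none was lower, with a median difference of 1.15. Of 34 DNA replication genes, 31 were higher and none lower, with a median of 0.77. Over all genes 11.7% were higher and 12.1% lower. In the lung line, where 2.11% of all genes were higher, 15 mitosis genes and 4 replication genes were, with medians of 0.70 and 0.36. The lines differed at 1 and 3 members, where 5.66% of all genes did. Aurka, the kinase of centrosome maturation, had 9.45 and 9.62 in elpNSCs-late, against 8.08 and 7.60 in elpNSCs-early (1.69 ± 0.16 s.e., adjusted p = 1.54e-05). Late arrays were near the level of Control-NSC, which averaged 9.70.

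Plk1, a kinase that drives entry into mitosis, had 10.60 and 10.79 in elpNSCs-late, against 9.45 and 9.30 in elpNSCs-early. Cdk1, the main mitotic kinase, had 9.66 and 9.92 in elpNSCs-late, against 8.22 and 8.45 in elpNSCs-early, though only 1 of its 2 other probes was called. Similar rises were measured for Tpx2 (1.29), Prc1 (1.26) and Ndc80 (1.17), which organize the spindle and kinetochore. Kif20a, the single mitosis member not called, differed by -0.32.

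Cdc6, which loads the replicative helicase, had 9.48 and 9.40 in elpNSCs-late, against 7.94 and 7.97 in elpNSCs-early. That probe's change differed from the lung line by 1.21, while a second probe was not called (0.38). Mcm10, a helicase activator, rose by 1.03 and by 1.16 with its other probe. Pcna, the sliding clamp of DNA polymerase, rose by 1.11 and Tk1, thymidine kinase, by 1.28, both by more than in the lung line. Another probe of Tk1 rose by 1.23, while a further one was not called (0.33). Mcm3 (0.12), Chaf1a (0.33) and Pole (0.55) were not called.

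Genes that write or read DNA and histone methylation had a median of 0.26, and none was lower. Of 17 members, 6 were higher (35.3%, against 11.7% of all genes). They were Ezh2, Suz12 and Eed, which form the polycomb repressive complex 2, Cbx2 of polycomb repressive complex 1, Dnmt1, the maintenance DNA methyltransferase, and Uhrf1, its partner. Ezh2 had 8.46 and 8.60 in elpNSCs-late, against 7.09 and 7.48 in elpNSCs-early. Suz12 and Cbx2 lie on chromosome 11, and 4 members were called with that chromosome left out.

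Targets of p53 fell in the limb line. Of 22 tested, 11 were lower and 1 higher, with a median of -0.62, while the lung line had 1 lower and 1 higher and a median of -0.17. The change differed between the lines at 8 members, where 5.66% of all genes did. Cdkn1a, the inhibitor of cyclin-dependent kinases known as p21, had 10.17 and 10.35 in elpNSCs-late, against 11.50 and 11.67 in elpNSCs-early (-1.33 ± 0.12 s.e., adjusted p = 1.06e-05). Its 2 other probes fell by 1.64 and 1.83. The late arrays were near Control-NSC, at 10.44 on average, and the early arrays between that and Fibroblasts, at 12.64.

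Mdm2, the ubiquitin ligase that degrades p53, had 9.50 and 9.52 in elpNSCs-late, against 10.53 and 10.27 in elpNSCs-early. Fas, a death receptor, had 6.01 and 6.09 in elpNSCs-late, against 7.86 and 7.71 in elpNSCs-early. Trp53inp1, an autophagy and cell-death regulator, fell by 1.10, and its second probe by 1.51. Bbc3, which encodes the death factor PUMA, fell by 1.81 with the brightest probe, but neither of its other probes was called. For Fas and Mdm2, 1 of 2 other probes was called. With median scaling the difference between lines was not called for Cdkn1a (-0.67), Mdm2 (-0.51) and Trp53inp1 (-0.54). Ddit4, the inhibitor of mTOR signalling that hypoxia also induces, was the single rise (1.43). Among other cell cycle brakes, Cdkn2a (-0.56), Cdkn2b (-0.42) and Cdkn1c (-0.41) were lower and Cdkn2d (0.58) higher. Of 15 CDK inhibitors and cyclins, 4 were lower (26.7%, against 12.1% of all genes) and 3 higher (20%, against 11.7%). The lower count was 1 with median scaling, with array weights and on the limb arrays alone.

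**Figure D4:**
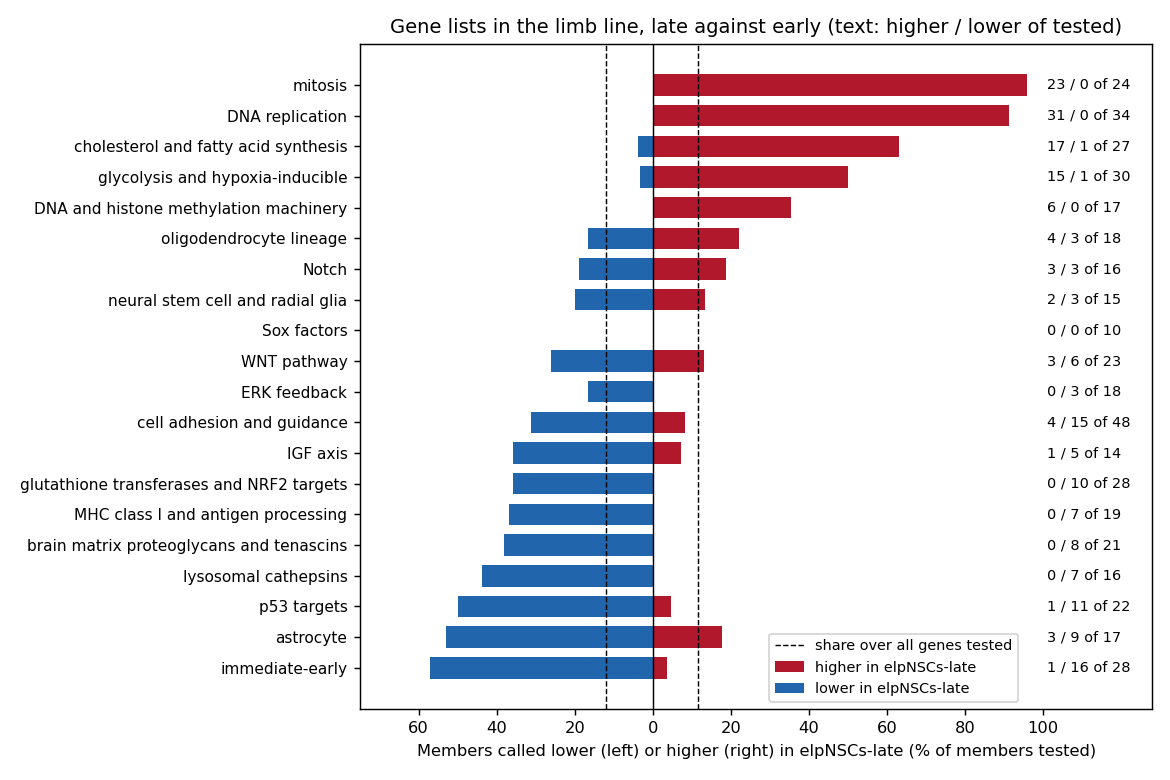
Share of tested members of 20 gene lists called lower (bars to the left) or higher (bars to the right) in elpNSCs-late than in elpNSCs-early, with counts at the right and dashed lines at the shares over all genes, 12.1% lower and 11.7% higher. Mitosis and DNA replication have 23 of 24 and 31 of 34 members higher, and immediate-early genes 16 of 28 lower.

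Sterol and fatty acid synthesis rose in the late cultures. Of 27 members, 17 were higher (63%, against 11.7% of all genes) and 1 lower (3.7%, against 12.1%), with a median of 0.54. In the lung line 4 were higher and none lower, against 2.11% and 2.72% of all genes. Msmo1, a sterol demethylase, had 10.22 and 10.72 in elpNSCs-late, against 9.17 and 9.04 in elpNSCs-early. Lss, which closes the sterol rings, had 7.63 and 8.20 in elpNSCs-late, against 6.64 and 5.99 in elpNSCs-early, and Stard4, a sterol carrier, rose by 1.63. Fdps, farnesyl diphosphate synthase, rose by 0.83 in the limb line and by 0.85 in the lung line. Srebf1, a transcription factor for lipid synthesis genes that was named after its values were seen, was the single fall (at least 1.16-fold), below detection in elpNSCs-late. The second late array was above the first at 16 of the 18 called members, and without elpNSCs-late replicate 2 only 7 were called higher. Fitted on the 4 limb arrays alone, 6 members were called higher and none lower.

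Glycolytic and hypoxia-inducible genes were higher at 15 of 30 members (50%, against 11.7% of all genes) and lower at 1 (3.33%, against 12.1%), with a median of 0.50. In the lung line 2 were higher and 1 lower, against 2.11% and 2.72% of all genes. Hk2, the inducible hexokinase that starts glycolysis, had 9.18 and 9.94 in elpNSCs-late, against 7.67 and 7.27 in elpNSCs-early (2.09 ± 0.21 s.e., adjusted p = 3.36e-05). Ndrg1, a hypoxia-induced gene, had 6.59 and 7.49 in elpNSCs-late, against 4.49 and 4.53 in elpNSCs-early, at least 5.09-fold higher. Pdk1, a kinase that inhibits pyruvate dehydrogenase, had 7.13 and 8.24 in elpNSCs-late, against 5.81 and 5.81 in elpNSCs-early. At these genes the second late array was the higher each time.

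That held for 15 of the 16 called members, and without elpNSCs-late replicate 2 only 9 members were called higher. Egln3, a prolyl hydroxylase that marks HIF for degradation, had 9.07 and 9.37 in elpNSCs-late, against 7.78 and 7.66 in elpNSCs-early. Rises were also called for the glucose transporters Slc2a1 (1.11) and Slc2a3 (1.49), for Vegfa (1.40) and for Ldha (0.62). Gapdh (0.08), Pgk1 (0.14) and Car9 (0.08) were not called, and Pfkfb4, a regulator of glycolytic flux, was at least 1.75-fold lower. Pfkl, phosphofructokinase of liver type, rose by 1.67 with 1 probe and by 0.06, not called, with the other.

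Respiratory chain subunits had a median of -0.25 over 68 members, of which 9 were lower (13.2%, against 12.1% of all genes) and none higher. Uqcr11 of complex III had a difference of -0.48 and Ndufa6 of complex I one of -0.57. These calls depended on the settings. Without elpNSCs-late replicate 2 none was called lower, and without replicate 1 there were 16. None was called lower with array weights or on the limb arrays alone, and with median scaling 3 members were higher and none lower.

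Detoxifying enzymes were lower at 10 of 28 members (35.7%, against 12.1% of all genes) and higher at none. Beside Gstt3, Gstt1 had 4.79 and 4.97 in elpNSCs-late, against 6.65 and 6.44 in elpNSCs-early, and Gstk1 was at least 2.31-fold lower. Nqo1, a quinone reductase and standard target of NRF2, was at least 1.57-fold lower, while the NRF2 targets Hmox1 (-0.23), Gclm (-0.31) and Txnrd1 (-0.01) were not called. Gstm1 fell by 1.05, which its other probe did not share. The lung line had 4 members lower and none higher, against 2.72% and 2.11% of all genes.

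Lysosomal genes were lower at 7 of 16 members (43.8%, against 12.1% of all genes) and higher at none, with a median of -0.50. Hexa, a subunit of beta-hexosaminidase, had 7.51 and 7.47 in elpNSCs-late, against 8.93 and 8.70 in elpNSCs-early. The protease Ctsf fell by 1.35 and the membrane protein Lamp1 by 1.00. Hexa and Ctsf fell by more than in the lung line.

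Genes of MHC class I antigen presentation were lower at 7 of 19 members (36.8%, against 12.1% of all genes) and higher at none. None was called in the lung line, where only 4.83% of all genes were called. Tap2, a subunit of the peptide transporter, had 6.54 and 6.33 in elpNSCs-late, against 8.25 and 7.90 in elpNSCs-early, and differed from the lung line by -1.77 (adjusted p = 1.99e-04). Tap1, the other subunit, was at least 1.18-fold lower and B2m, the light chain, fell by 0.57, while the classical heavy chains H2-K1 (-0.36) and H2-D1 (-0.33) were not called. Fitted on the limb arrays alone, 3 members were lower. Of 27 interferon response genes, 5 were lower (18.5%, against 12.1% of all genes) and 1, Irf1 (0.42, on chromosome 11), was higher. Samd9l, an antiviral factor, had 4.77 and 4.95 in elpNSCs-late, against 7.76 and 7.30 in elpNSCs-early, and Ifitm2 fell by 1.66. Stat2 (0.37), Irf7 (0.06) and Isg15 (0.02) were not called.

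The neural stem cell markers Sox2, Nes and Olig2 were not called between late and early limb cultures. Of 15 members of the neural stem cell and radial glia list, 2 (13.3%) were higher, Msi2 (0.52, on chromosome 11) and Cd44 (0.40). Another 3 (20%) were lower, Hes5, Hes1 and Notch1, where all genes had 11.7% higher and 12.1% lower. Sox2, a transcription factor, had 8.27 and 8.69 in elpNSCs-late, against 8.57 and 8.06 in elpNSCs-early (0.16 ± 0.20 s.e., adjusted p = 0.611). Nes, the intermediate filament nestin, had 8.42 and 8.67 in elpNSCs-late, against 8.80 and 8.84 in elpNSCs-early (-0.27 ± 0.14, adjusted p = 0.193). Olig2 had 7.07 and 7.57 in elpNSCs-late, against 6.89 and 8.03 in elpNSCs-early, with the late values inside the early range. None of 10 Sox genes tested was called, nor were Fabp7 (0.49), Vim (0.12) and Slc1a3 (0.01). The filter on detection removed Gfap, Nanog, Pax6 and Sox1. Of the mesenchymal and crest genes the study followed, Col1a1 was not detected on any limb array, and Snai1 (-0.14) and Ngfr (0.07) were not called, while Thy1 and Ccn2 were lower, at least 4.86-fold and 8.48-fold.

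Astrocyte genes were lower at 9 of 17 members (52.9%, against 12.1% of all genes) and higher at 3 (17.6%, against 11.7%). In a fit on the limb arrays alone 5 were lower. Apoe, a lipid carrier, had 5.05 and 5.36 in elpNSCs-late, against 7.28 and 7.15 in elpNSCs-early, and S100b, a calcium-binding protein, had 5.84 and 5.45 in elpNSCs-late, against 7.20 and 6.98 in elpNSCs-early. Aldh1l1, a folate enzyme used as an astrocyte marker, had a difference of -1.22, with 1 of its 3 other probes not called. Falls were also called for Agt (-1.04), Aqp4 (-0.73) and Clu (-0.61). The rises were of Fgfr3, a growth factor receptor (1.44), Acsl6, an acyl-CoA synthetase (1.28), and the glycolytic Aldoc (0.82). Acsl6 and Aldoc lie on chromosome 11.

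Oligodendrocyte-lineage genes were called in both directions, 4 of 18 higher (22.2%, against 11.7% of all genes) and 3 lower (16.7%, against 12.1%). Their median was -0.04, and of the called members only rises are named here. Gpr17, a receptor of committed precursors, had 6.95 and 6.80 in elpNSCs-late, against 4.47 and 4.39 in elpNSCs-early, at least 4.54-fold higher, and was below background in Control-NSC as well (4.40). Ugt8a, which makes myelin galactolipids, had 6.76 and 6.91 in elpNSCs-late, against 5.58 and 5.68 in elpNSCs-early, while in late lung arrays, which did not detect it, it was at least 2.10-fold lower. Pdgfra, the receptor of precursors, rose by 0.98. Mbp (0.28), Cnp (-0.24) and Nkx2-2 (0.04) were not called.

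Brain proteoglycans were lower at 8 of 21 members (38.1%, against 12.1% of all genes) and higher at none, and 13 were not called. Hspg2 (-0.68), Bcan (-0.66) and Ncan (-0.61) were among the falls. Adhesion and guidance genes were lower at 15 of 48 (31.2%) and higher at 4, and 29 were not called. The ephrin Efna5 was at least 3.30-fold lower. The lower counts were 1 and 7 with median scaling and 3 and 6 on the limb arrays alone, and the proteoglycan count was 4 without elpNSCs-late replicate 2 or elpNSCs-early replicate 1. Without elpNSCs-late replicate 1 the adhesion count was 8. In the WNT list 6 of 23 were lower (26.1%, against 12.1% of all genes) and 3 higher (13%, against 11.7%). Wnt5a, a non-canonical ligand, had 7.18 and 7.16 in elpNSCs-late, against 8.63 and 8.52 in elpNSCs-early, and Wnt7b fell by 0.79 in the limb line while it rose by 0.71 in the lung line. In the IGF axis 5 of 14 were lower (35.7%, against 12.1% of all genes) and 1 higher (7.14%, against 11.7%). The falls included the growth factor Igf2, which was below detection in elpNSCs-late (at least 1.79-fold lower), and the adaptor Irs2 (-1.01). Only 2 IGF members were lower with median scaling, with array weights or on the limb arrays alone.

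Feedback genes of ERK signalling were lower at 3 of 18 members (16.7%, against 12.1% of all genes) and higher at none. Dusp4, an ERK phosphatase, had 6.18 and 6.17 in elpNSCs-late, against 7.25 and 7.50 in elpNSCs-early. Etv5, a transcription factor induced by FGF, had 8.83 and 8.85 in elpNSCs-late, against 9.83 and 10.18 in elpNSCs-early, and Spry4, an inhibitor of receptor kinases, fell by 1.11. Dusp4 and Etv5 were not called in the lung line, and their change differed between the lines by -1.09 and -1.26.

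The rises were not spread evenly over the genome, as was noticed after the values were seen. On chromosome 11, by the RefSeq placement of GRCm38.p6, 226 of 873 genes (25.9%) were higher in elpNSCs-late and 51 (5.84%) lower, against 10.4% and 12.7% of the 9271 genes elsewhere. The median difference was 0.15 on chromosome 11, and lay between -0.04 and 0.02 on each other chromosome. For the 584 chromosome 11 genes detected on all 12 arrays it was 0.25. Along the gene order of the chromosome the median of each eighth lay between 0.19 and 0.40.

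Set against the mean of Control-NSC and centred on each array, the chromosome 11 median was 0.19 and 0.17 in elpNSCs-late, against -0.03 and -0.02 in elpNSCs-early. On the lung arrays it lay between -0.01 and 0.01. The 2 late limb arrays thus stood apart from the other 6 pNSC arrays. The shift was 0.11 with a normexp offset of 50, 0.08 with no background correction, 0.23 with the deposited normalized values and 0.36 with median scaling, where genes elsewhere had a median of 0.14. DNA copy number was not measured in these data. Of the genes named above and called in the limb line, Otx1, Cdc6, Tk1, Flot2, Srebf1, Irf1, Msi2, Suz12, Cbx2, Acsl6 and Aldoc lie on this chromosome. Without chromosome 11 the mitosis list had 21 members higher, the replication list 27, the sterol list 15 and the glycolysis list 14.

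**Figure D5:**
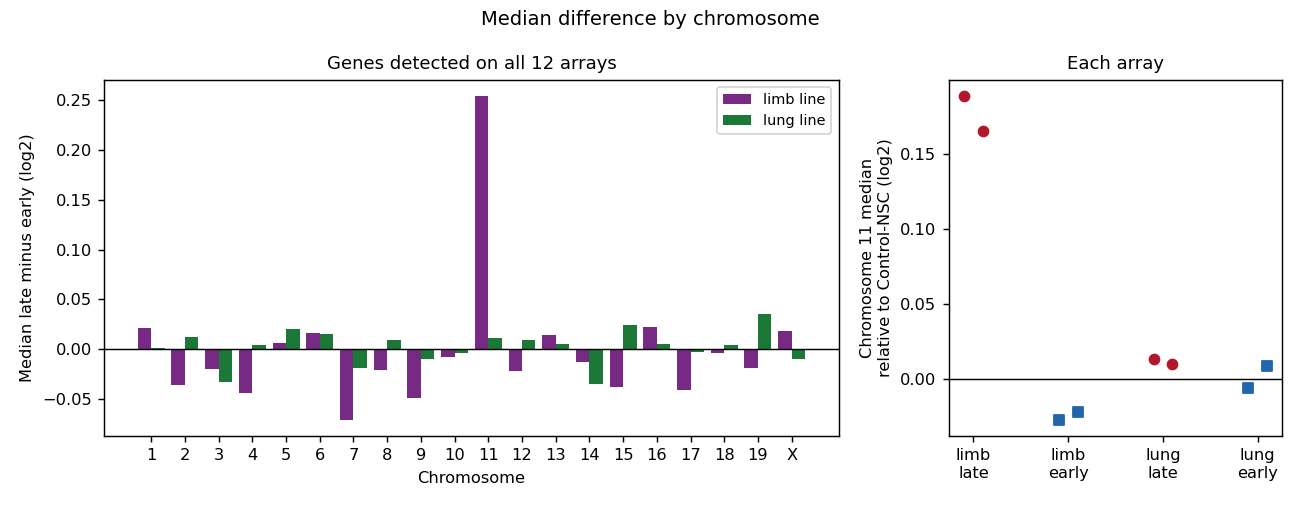
Left, median late minus early difference on the log2 scale per chromosome for genes detected on all 12 arrays, in the limb line (purple) and lung line (green). Right, chromosome 11 median of each array relative to Control-NSC, where the 2 elpNSCs-late arrays (0.19 and 0.17) stand above the other 6, between -0.03 and 0.01.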

How the data were processed

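RNA from 12 samples in 6 groups of 2, grouped by the sample titles, was hybridized to Illumina mouse BeadChips. The authors deposited linear signal intensity values with 1 detection p-value for each probe on each array, read with BeadStudio 3.2 and not normalized. They also deposited log2 values made with RMA-type background correction and normalization in lumi, used here only as an alternative. Of 25697 probes, 23978 carried 1 gene symbol, and 23962 of these symbols were found in RefSeq and updated.

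Here the intensities were background-corrected by normexp with an offset of 16, quantile normalized and put on the log2 scale (neqc of limma 3.58.1, R 4.3.3). The 14869 probes with a detection p under 0.05 on 2 or more arrays were kept, and each gene was read from its brightest probe. A model of 6 group means over all 12 arrays (6 residual degrees of freedom) was fitted with lmFit and eBayes, and p-values were adjusted by Benjamini-Hochberg over 10144 genes, at 0.05. The script was checked on simulated data. An exact permutation test of 2 arrays against 2 cannot go below p = 0.333. The number of arrays limits the precision.

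Gene lists are described by counts and medians, with no set test. The shares to set beside their counts are 11.7% higher and 12.1% lower over all genes. The members, lists and named genes were chosen with earlier results of these data known. Named genes were those the study followed, the largest changes without overlap between arrays, up to 6 called members a list, and list genes whose change differed from the lung line. Alternatives are given at the end. Promoters were read from a RefSeq table. Figures were drawn with matplotlib 3.10.9.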

Additional observations from a re-analysis of the deposited data

Results flagged for a closer look

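Results were picked out here when the limb change differed from the lung change by the test of that difference, or when a signal lay outside the genes compared. The values are the limb late minus early difference less the lung one, on the log2 scale, at an adjusted p under 0.05. Of 108 genes read in detail, 61 met this, with the limb value above the lung value at 27, and 5.66% of all genes did. The genes were chosen partly for this difference, so their number supports nothing.

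Where a gene was below detection in a group, its gap is a fitted value and not a measured size. Upwards, Lypd1 differed by 3.93, Ugt8a by 2.74, Ndrg1 by 2.26, Pdlim1 by 2.17 and Gpr17 by 2.16. Late lung arrays did not detect Ugt8a, and early arrays of neither line detected Ndrg1 or Gpr17. Among transcription factors the gap was 1.84 for Pou4f1, 1.81 for Isl1, 1.63 for Meox2, 1.42 for Osr2 and 1.20 for Otx1. Cytip differed by 1.73, the contractile actin Acta2 by 1.41 and Bex2 by 0.89. In the Notch list Mfng differed by 1.52, Dll3 by 1.16 and Hes6 by 0.92.

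The hypoxia-inducible Hk2 differed by 1.56, Egln3 by 1.29 and Ddit4 by 0.86, and the glycogen regulator Ppp1r3c by 1.09. Division genes were further apart for Cdc6 (1.21), Pcna (0.91), H3c7 (0.91), Cdk1 (0.88) and Tk1 (0.68), and the sterol carrier Stard4 differed by 0.78. Ccn1 differed by 0.76, its fall being the smaller in the limb line.

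Downwards, among the genes read in detail, were Tubb6 (-4.58), Casp1 (-3.97), Jmjd8 (-2.91), Thy1 (-2.68) and Gstt3 (-2.64). The late limb arrays were below detection for Tubb6, Jmjd8, Thy1 and Gstt3, and the lung arrays for Thy1. Gaps were also found for Nudt7 (-2.46), Svop (-2.25), Itm2a (-2.19), Samd9l (-2.17), Col18a1 (-2.08), Churc1 (-1.95) and Ky (-1.65). Antigen presentation and interferon genes differed by -1.77 for Tap2, -1.38 for Ifitm2, -1.05 for Tapbp and -0.97 for H2-M3. Another probe of Tapbp was not called in the limb line (0.08). Targets of p53 differed by -1.36 for Bbc3, -1.03 for Fas, -0.97 for Cdkn1a, -0.81 for Trp53inp1 and -0.78 for Mdm2. The gaps of Cdkn1a, Trp53inp1 and Mdm2 were not called with median scaling.

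Smaller gaps were found for the ligands Wnt7b (-1.50), Wnt5a (-0.87) and Igf2 (-0.87), the BMP modulator Bmper (-1.07) and the ERK-responsive Etv5 (-1.26) and Dusp4 (-1.09). Astrocyte genes S100b (-1.33) and Apoe (-0.87), the enzymes Gstt1 (-1.29), Hexa (-1.19) and Ctsf (-0.80), and the immediate-early Ier3 (-0.94) and Zfp36 (-0.84) completed the set.

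Probes that carry no gene symbol also moved. Of 863 such probes kept, 157 were called between elpNSCs-late and elpNSCs-early, 69 higher and 88 lower.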

How the results depend on the processing

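Counts of calls depended on the settings, and with median scaling the split between higher and lower did too. In the limb line 1187 genes were higher and 1226 lower, in the lung line 214 and 276, and the limb change exceeded the lung change at 251 genes and fell short at 323. With median scaling the limb counts were 2262 and 623 and the counts for the difference between lines 521 and 178. With the deposited normalized values 124 lung genes were higher, and the difference counts were 134 and 192. Array weights gave 708 and 746 limb genes and 347 higher in the lung line. Fits on the limb arrays alone, or on the pNSC arrays alone for the other comparisons, gave 432 and 512 in the limb line, 122 higher in the lung line, and 117 and 173 for the difference. A fold of at least 2 left 192 and 261, 36 and 96, and 102 and 166. Every limb call shared with another setting kept its sign, from 453 shared calls with a fold of at least 2 to 2399 with the replicate block. Why the counts moved was not tested.

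Leaving out 1 array at a time gave 809 to 1070 higher and 793 to 1262 lower genes in the limb line, the lowest without elpNSCs-late replicate 2 in both directions. The lung counts were 87 to 114 higher and 145 to 178 lower, and the difference counts 111 to 350 and 167 to 459. A lone array was assumed to vary like the other groups. With the replicate number as a block, 1302 limb genes were higher and 1319 lower. The numbers share no stated origin, and same-numbered arrays deviated together at correlations of only -0.15 to 0.24.

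Among single genes no limb change reversed. The difference between lines reversed for Ier3 with no background correction (0.23) and for Hes5 (-1.08) and Gstk1 (-1.79) with the deposited normalized values. The limb calls on Hes6, Klf2, Notch1, Srebf1, Ndufa6 and Uqcr11 were lost most often. Further choices were made after seeing the data: leaving out chromosome 11 gave 961 and 1175 limb genes, and keeping genes detected on all 4 limb arrays gave 1092 and 1042. Signal near background limits how far the falls of 141 genes, dark on both late arrays, can be measured.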

Other observations

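Targets of YAP and TEAD, which respond to cell contact and tension, were lower at 5 of 15 members (33.3%, against 12.1% of all genes) in elpNSCs-late than in elpNSCs-early and higher at none, with a median of -0.40. They were Ccn2 and Ccn1, which are also in the immediate-early list, the receptor kinase Axl (-1.29), Crim1 (-1.19) and Asap1 (-0.60). Hox genes hold positional identity along the body axis, and their median was -0.01. Of 28 members, 4 were higher in elpNSCs-late than in elpNSCs-early (14.3%, against 11.7% of all genes). Lower was 1 (3.57%, against 12.1%), Hoxc6 (at least 1.29-fold). Hoxd9 (1.02), Hoxb2 (0.71), Hoxd4 (0.53) and Hoxa2 (0.49) were the rises. Fitted on the limb arrays alone, 1 Hox gene was called higher. Limb patterning genes were higher at 1 of 16 members (6.25%), Meox2, and lower at 2 (12.5%), Irx3 (-0.87) and Irx5 (-0.43). Over all genes the shares were 11.7% and 12.1%. Tbx4, a hindlimb factor, differed by -0.01. Genes of amino acid stress under ATF4 were higher at 8 of 32 (25%, against 11.7% of all genes) and lower at 4 (12.5%, against 12.1%). Ribosomal protein genes were higher at 3 of 51 (5.88%, against 11.7% of all genes) and lower at none.

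Neuron and neuroblast genes were higher at 4 of 19 (21.1%, against 11.7% of all genes) and lower at 2 (10.5%, against 12.1%). On the limb arrays alone 2 were higher and none lower. Stmn3, a microtubule regulator, differed by 1.37 and Rbfox3, a splicing factor of mature neurons, by 1.06, while Tubb3 (-0.05) and Dcx (0.42) were not called. At 11.42 and 11.66 in elpNSCs-late, against 12.05 and 11.83 in elpNSCs-early, the neuron marker Map2 was lower (-0.40, adjusted p = 0.0496). Summed on the linear scale, 5 neuron markers chosen for the check reached 2875 and 3405 in elpNSCs-late, against 4352 and 3753 in elpNSCs-early. In the smooth muscle list the actin Acta2 had 9.18 and 9.29 in elpNSCs-late, against 8.08 and 8.19 in elpNSCs-early, whereas Csrp1 (-1.59) and Mylk (-0.90) were lower and Tagln (0.15) was not called. Of 3 other kept probes of Acta2, 1 was called.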
